A study of Homo sapiens with 18 samples.

Results

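Gene expression was compared between docosahexaenoic acid (DHA) and erastin, a pair of ferroptosis inducers, in MDA-MB-231 cells that carry a hairpin against IGFBP6. The comparison used 6 of the 18 libraries of the study: 3 of sh-IGFBP6 cells given DHA and 3 of sh-IGFBP6 cells given erastin. They were chosen by their labels alone, and no vehicle library entered the test. MDA-MB-231 is an established triple-negative breast cancer line. DHA was given at 200 µM and erastin at 2.5 µM. Per the labels, DHA was supplied in ethanol with 0.5% DMSO beside it, and erastin in DMSO with 0.5% ethanol beside it, so that both groups met both solvents. The vehicle wells received 0.5% DMSO and 0.5% ethanol. Wells held 800000 cells, plated 24 h before a treatment of 24 h, in medium with serum. The other 12 libraries were 3 vehicle libraries of the same sh-IGFBP6 line and 9 libraries of a control line with a hairpin against luciferase (sh-LUC), 3 for each treatment. The labels do not say whether either line is 1 clone or a pool, or whether the replicates were grown apart. The p-values therefore rest on the spread among the libraries at hand, which could be technical.

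Ferroptosis is a form of cell death driven by iron-dependent peroxidation of polyunsaturated phospholipids. Erastin blocks system xc-, the cystine and glutamate exchanger made of SLC7A11 and SLC3A2, which starves the cell of cysteine and then of glutathione, the cofactor of the lipid peroxidase GPX4. DHA is a long polyunsaturated fatty acid that enters membranes, where it is readily peroxidised, and it is also a ligand of lipid-sensing nuclear receptors. IGFBP6 is a secreted protein that binds insulin-like growth factors, IGF2 above all. Contrasting the treatments with each other sets aside what both agents changed alike and leaves what set them apart.

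Values are raw gene counts. Levels are given as CPM (counts scaled to the library's effective total), which are not scaled for gene length, so levels are compared between libraries and not between genes. Differences are log2 of DHA over erastin, so positive values mean higher after DHA. The DHA libraries held 3174015 to 6592609 gene counts. The first and second erastin libraries held 7153762 and 4497420 counts, whereas erastin replicate 3 held 609936, of which 54.4% came from the mitochondrial ribosomal RNA genes MT-RNR1 and MT-RNR2. In the other 5 libraries those genes took 0.232% to 0.504%. They were left out of library sizes and tests, which left 278278 counts in erastin replicate 3, so that 1 count there equals 4.0 CPM against 0.139 to 0.309 CPM elsewhere. IGFBP6, the knocked-down gene, stood at 0.928, 1.19 and 0.774 CPM after DHA and at 0.557, 0.433 and 4.0 CPM after erastin, where the last value is 1 count. The sh-LUC means were 20.8 ± 2.11 CPM with vehicle, 14.9 ± 1.55 CPM with DHA and 16.5 ± 0.0666 CPM with erastin (SD, n = 3), above every sh-IGFBP6 library. Of 7 markers of this mesenchymal-like line, 6 were high enough to test. S100A4 was near the floor, at 0.309, 0.448 and 0.258 CPM after DHA and 0.835, 0.433 and 0 CPM after erastin, against at least 29.8 CPM in every sh-LUC library. The 7 had summed levels of 4054 to 4209 CPM after DHA and 4430 to 4695 CPM after erastin. Of 8 luminal markers, which mark another breast cell state, the summed level was 494 to 559 CPM after DHA and 584 to 753 CPM after erastin, and the part of this shift in the results was not tested. Markers of leukocytes, fibroblasts, endothelium and red cells summed to at most 13.6 CPM in any of the 6 libraries, with CD3E, COL1A2, LUM, CDH5 and HBB at 0. In bulk RNA, fewer cells of a state and less RNA per cell cannot be told apart.

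After DHA, 1858 of 13278 tested genes were called higher than after erastin (14.0%) and 1836 lower (13.8%), with Benjamini-Hochberg adjusted p-values under 0.05 from the quasi-likelihood test of edgeR. Among them, 133 called genes were at least 2-fold higher (1.00%) and 216 at least 2-fold lower (1.63%). TMM scaling centres the differences, and their median over all tested genes was 0.00. The groups of 3 did not overlap in CPM for 34.1% of genes, with DHA above in 18.2% and below in 15.9%. Without erastin replicate 3, 1920 genes were called higher and 1904 lower of 13730 tested, and 1798 and 1771 of them were shared with the calls on 6 libraries. Leaving out erastin replicate 1 instead lowered the calls to 1228 and 1158. DESeq2 called 550 higher (4.14%) and 486 lower (3.66%) on 6 libraries. It did not call 39 of the named genes that edgeR called, and its adjusted p stands beside each of those given here. Of 76 counts of list members called in 1 direction, 49 moved by over 1.5 times under DESeq2, whose counts on the same 6 libraries stand beside those of edgeR. Counts near the shares over all genes, 14.0% higher and 13.8% lower by edgeR, do not set a list apart. No gene was called in opposite directions by any of the alternatives run.

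The vehicle libraries, described here as levels and not tested, place these genes. Of the 133 genes at least 2-fold higher after DHA, the DHA mean lay above the vehicle mean and the erastin mean below it for 61. Both treatment means lay above vehicle for 47 and both below it for 25. Of the 216 genes at least 2-fold lower after DHA, 109 had the erastin mean above vehicle and the DHA mean below it, 47 had both above and 60 had both below. The treatment means thus lay on opposite sides of vehicle for some of these genes and on the same side, at unequal distance, for others. The genes were chosen for their difference between treatments, which left the reverse order around vehicle empty. Positions were not counted over all tested genes, and the erastin means include the shallow replicate 3.

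**Figure D1:**
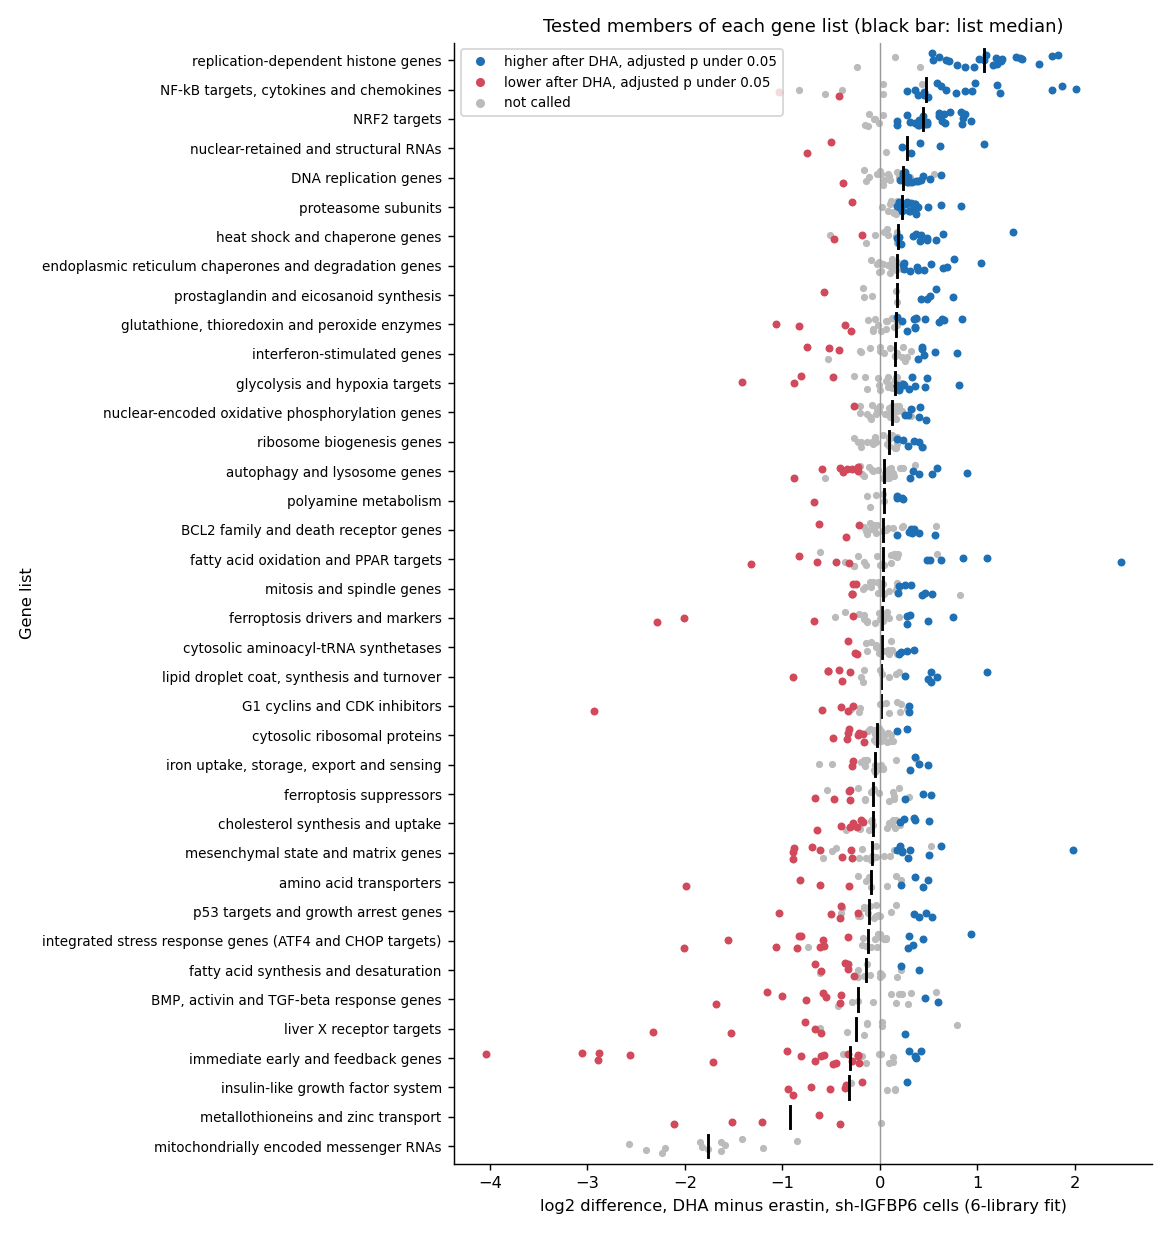
Log2 difference, DHA over erastin in sh-IGFBP6 cells, for every tested member of 38 gene lists, 1 row per list and 1 point per gene. Blue points were called higher after DHA, red points called lower, grey points not called, and the black bar is the list's median. The histone row lies furthest to the right (median 1.07), and the immediate early row reaches furthest to the left, to -4.04 at ARC.

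Immediate early genes were among the largest differences toward erastin: ARC, DUSP8, NR4A1, EGR1 and FOS were all among the 12 widest by the naming rule. CDKN1C (-2.93) and CAVIN2 (-2.65), of other classes, ranked between them. Immediate early genes are transcribed within minutes of growth factor, calcium or stress signals, through factors such as serum response factor, without new protein synthesis. The promoter of EGR1 is shown because it holds matches to the CArG box, the core of the serum response element. The sequence is the 200 bases before the RefSeq start site on GRCh38.p14, chr5:138465279-138465478, plus strand, 5′ to 3′, with the CArG box matches in capitals, 105 and 83 bases before the start.
EGR1: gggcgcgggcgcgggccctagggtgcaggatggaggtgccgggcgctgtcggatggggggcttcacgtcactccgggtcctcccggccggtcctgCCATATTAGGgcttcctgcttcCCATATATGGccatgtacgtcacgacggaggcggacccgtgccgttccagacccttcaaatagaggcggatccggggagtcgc
A CArG box, searched on both strands of the 250 bases before each start, was present in 1 of 22 listed immediate early genes with a promoter in the RefSeq table, which was EGR1, and in 1.14% of all 27305 promoters. Among the 10041 promoters of tested genes the share was 0.976%. A match is a description of letters, not evidence of binding.

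ARC, which encodes a cytoskeleton-associated regulator of synaptic receptors, had the widest difference among genes averaging at least 5 CPM. It stood at 8.04, 10.7 and 8.25 CPM after DHA and at 150.03, 166 and 119.96 CPM after erastin, against 2.85 ± 1.31 CPM (SD, n = 3) with vehicle. The groups did not overlap, and ARC was 16.5-fold higher after erastin, a log2 difference of -4.04 (SE 0.11, adjusted p = 2.1e-51). EGR1, the zinc finger factor at chr5:138465490-138469315, + strand, in GENCODE 29, stood at 189, 172 and 156 CPM after DHA and at 1183, 1209 and 1459.5 CPM after erastin. Vehicle libraries held 59.3 ± 1.51 CPM, so both treatments lay above vehicle, erastin by far the more, and the treatments differed by -2.88 (SE 0.07, adjusted p = 2.1e-45). FOS, an AP-1 subunit (chr14:75278774-75282230, + strand), read 65.5, 68.2 and 66.8 CPM after DHA and 386, 439.6 and 276 CPM after erastin, with vehicle at 10.4 ± 2.01 CPM. The difference was -2.56 (SE 0.08, adjusted p = 1.1e-34), again with no overlap. NR4A1, an orphan nuclear receptor, gave 14.8, 9.55 and 11.3 CPM and 80.6, 91.7 and 52 CPM, a difference of -2.89 (SE 0.12, adjusted p = 7.8e-35). JUN, the partner of FOS, stood at 378, 375 and 395 CPM after DHA and 646, 713 and 636 CPM after erastin, a smaller difference of -0.81 (SE 0.06, adjusted p = 6.4e-20).

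Of the 30 tested immediate early and feedback genes, 18 were called lower after DHA and 4 higher (2 higher and 11 lower by DESeq2), with a median of -0.31. DUSP8, a phosphatase that inactivates stress-activated MAP kinases, stood at 1.86, 1.34 and 2.58 CPM after DHA and 12.9, 17.6 and 32 CPM after erastin. Its difference was -3.06 (SE 0.27, adjusted p = 1.7e-16). ZFP36, which promotes decay of AU-rich messenger RNAs, differed by -1.71, and DUSP1, another MAP kinase phosphatase, by -0.95. The genes called in the other direction were IER3 (0.42), SPRY4 (0.36), DUSP10 (0.37, DESeq2 adjusted p = 0.384) and KLF10 (0.30, DESeq2 adjusted p = 0.204). IER3 is a gene of cell survival, SPRY4 a receptor kinase antagonist, DUSP10 a phosphatase and KLF10 a TGF-beta-inducible factor.

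**Figure D2:**
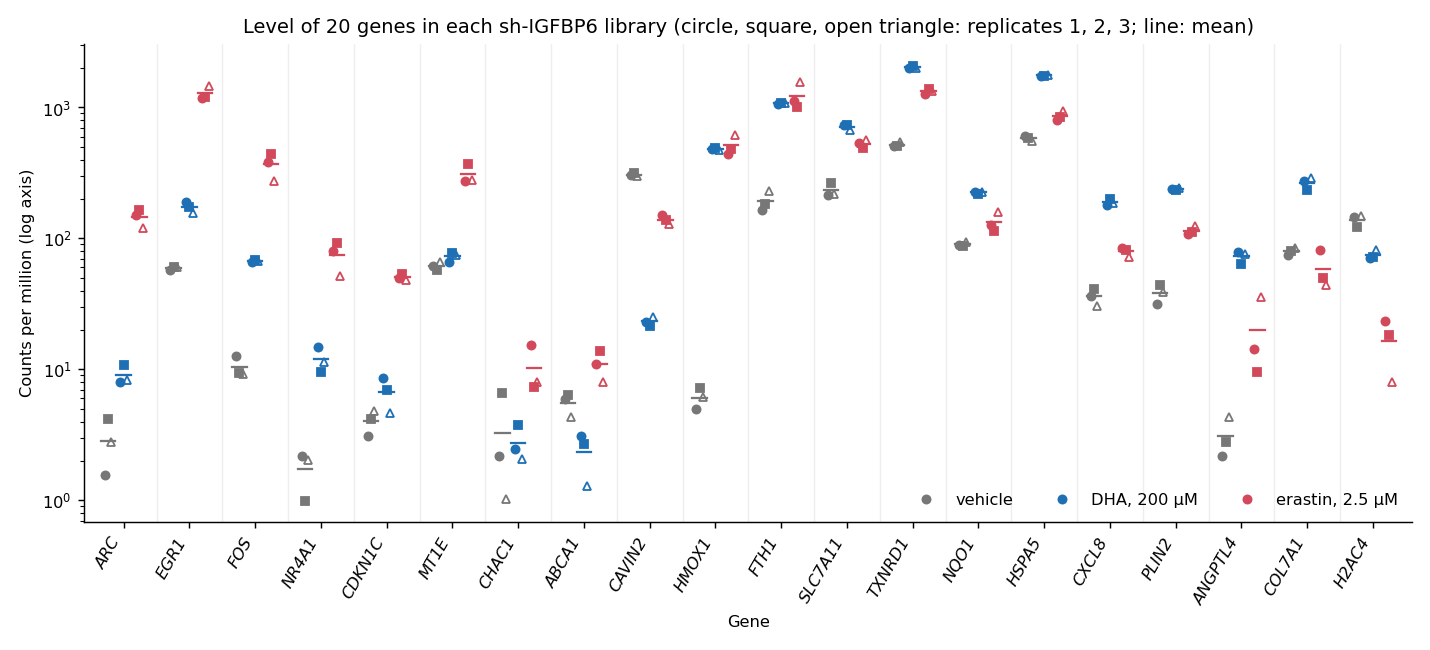
CPM on a log axis for 20 genes in each sh-IGFBP6 library under vehicle, DHA and erastin. Circles, squares and open triangles are replicates 1, 2 and 3, and the line is the group mean. EGR1 and FOS are higher in all 3 erastin than in all 3 DHA libraries, CXCL8 and HSPA5 the reverse, and HMOX1 overlaps between the treatments.

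Metallothioneins were higher after erastin. These small cysteine-rich proteins bind zinc and copper and are switched on by the metal sensor MTF1. MT1E stood at 66.5, 77.6 and 74.5 CPM after DHA, close to the vehicle level of 61.7 ± 4.38 CPM, and at 276, 369 and 279.9 CPM after erastin. The difference was -2.11 (SE 0.09, adjusted p = 7.6e-16). MT1X differed by -1.52 (SE 0.10, adjusted p = 1.3e-21), from 28.6 ± 3.88 CPM after DHA to 89.7 ± 13.7 CPM after erastin. MT2A, the most counted of them, gave 321, 323 and 366 CPM against 757, 796 and 779.7 CPM, a difference of -1.21 (SE 0.06, adjusted p = 3.6e-30). Of 6 tested genes of the metallothionein and zinc transport list, 5 were lower after DHA and none higher (none higher and 5 lower by DESeq2). By edgeR the 5 were 83.3% of the list, against 13.8% of all genes called lower. They included the zinc importer SLC39A10 (-0.63) and the zinc exporter SLC30A1 (-0.41). Metallothionein genes are near-identical copies, so how reads were divided among them is uncertain.

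Other genes among the widest toward erastin had varied functions. CDKN1C, the CDK inhibitor p57, read 8.66, 7.01 and 4.64 CPM after DHA and 50.1, 53.5 and 48 CPM after erastin, with vehicle at 4.05 ± 0.875 CPM. The difference was -2.93 (SE 0.15, adjusted p = 6.7e-31), and the groups did not overlap. CAVIN2, a coat protein of caveolae, was below vehicle under both agents: vehicle stood at 307 ± 9.25 CPM, erastin at 150.2, 138 and 128 CPM and DHA at 23.2, 21.3 and 25.3 CPM. The treatments differed by -2.65 (SE 0.09, adjusted p = 5.4e-43). RGMA, a co-receptor for bone morphogenetic proteins, differed by -2.12 (SE 0.27, adjusted p = 6.2e-10), at a low level that in erastin replicate 3 rested on 2 counts. SNORD3A, the U3 small nucleolar RNA that acts in ribosomal RNA processing, stood at 95.2, 148 and 129.7 CPM after DHA and 542, 501 and 892 CPM after erastin, a difference of -2.21 (SE 0.29, adjusted p = 0.00774). SNORD3A has near-identical copies and its counts are uncertain.

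Integrated stress response genes were called in both directions. In this pathway amino acid shortage or unfolded protein slows translation and raises the factor ATF4, whose targets include amino acid synthesis enzymes and transporters. Of 28 tested genes, 10 were called lower after DHA and 5 higher (3 higher and 8 lower by DESeq2), with a median of -0.12. By edgeR 35.7% were lower and 17.9% higher, against 13.8% and 14.0% of all genes. A promoter window of ATF3 is printed because ATF3 had the smallest p of the list and the window carries the ATF4 and C/EBP element TGATGNAA, in capitals, 191 bases before the start. Only the first window given for each gene was searched, so any other start site of ATF3 was not covered. The stretch shown is chr1:212565167-212565326 on GRCh38.p14, plus strand, and the 80 bases next to the start are left out since most of them lie within the gene as GENCODE annotates it.
ATF3: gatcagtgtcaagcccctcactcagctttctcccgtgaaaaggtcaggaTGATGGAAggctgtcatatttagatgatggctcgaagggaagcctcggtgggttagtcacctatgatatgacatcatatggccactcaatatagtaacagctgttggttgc
Searched on both strands, TGATGNAA occurred in 3 of 21 listed genes with a promoter in the table, ATF3, ASNS and CHAC1. It was in 3.19% of all promoters and in 1.44% of the promoters of tested genes.

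ATF3, a stress-induced repressor, stood at 16.4, 18.1 and 15.5 CPM after DHA and 44.5, 56.1 and 64 CPM after erastin, with vehicle at 5.64 ± 0.704 CPM. All 3 erastin libraries were higher, and the difference was -1.56 (SE 0.13, adjusted p = 7.4e-19). CHAC1 (chr15:40952962-40956519, + strand), which breaks down glutathione and is often used as a marker of system xc- inhibition, read 2.47, 3.73 and 2.06 CPM after DHA and 15.4, 7.37 and 8.0 CPM after erastin, with vehicle at 3.26 ± 2.93 CPM. The DHA libraries lay around the vehicle level, and the difference was -2.01 (SE 0.27, adjusted p = 1.3e-08), although erastin replicate 3 contributed 2 counts. PSAT1 and PHGDH, of serine synthesis, were also lower after DHA. PSAT1 differed by -0.83 (SE 0.07, adjusted p = 2.5e-17), PHGDH by -0.85 (SE 0.10, adjusted p = 1.2e-10) and CTH, which makes cysteine from cystathionine, by -1.07 (SE 0.14, adjusted p = 8.5e-10). PPP1R15A, which restores translation, differed by -0.57 (SE 0.06, adjusted p = 1.4e-12). DDIT3, the CHOP factor of prolonged stress, ran the other way, at 49.5, 55.4 and 53.9 CPM after DHA and 25.7, 29 and 56 CPM after erastin. Its difference was 0.93 (SE 0.11, adjusted p = 6.5e-11), though erastin replicate 3 overlapped the DHA libraries, and 0.98 without that library. ATF4 itself did not pass the test, at 289.9 ± 22.8 CPM after DHA and 302 ± 16.3 CPM after erastin (difference -0.05, SE 0.07, adjusted p = 0.673).

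Amino acid transporters were divided in the same way, with 4 of 15 called in each direction (2 higher and 3 lower by DESeq2) and a median of -0.09. SLC1A4, a carrier of alanine, serine and cysteine, stood at 8.97, 7.76 and 6.45 CPM after DHA and 33.5, 25.8 and 39.98 CPM after erastin, a difference of -1.99 (SE 0.16, adjusted p = 3.2e-18). SLC7A5, the large neutral amino acid carrier, differed by -0.62 (SE 0.07, adjusted p = 7.9e-12). Both chains of the erastin target were higher after DHA. SLC7A11, its transport chain, stood at 731, 730.2 and 675 CPM after DHA, 537, 493 and 559.8 CPM after erastin and 233 ± 27.9 CPM with vehicle. The treatments differed by 0.44 (SE 0.07, adjusted p = 4.3e-08) without overlap. SLC3A2, its heavy chain, stood at 532, 488 and 531 CPM and 360.03, 354 and 439.8 CPM, with vehicle at 174 ± 14.9 CPM, and differed by 0.49 (SE 0.07, adjusted p = 3.5e-09). Among 20 cytosolic aminoacyl-tRNA synthetases, which charge transfer RNAs, 4 were higher after DHA and 3 lower (1 higher and 2 lower by DESeq2). By edgeR these were 20% and 15%, near the 14.0% and 13.8% of all genes. The 4 became 1 without erastin replicate 2 and 2 without DHA replicate 1. MARS1 (0.35) was among the higher and GARS1 (-0.33) among the lower.

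Targets of NRF2, the factor that KEAP1 releases under electrophilic stress, were called in 1 direction, with 24 of 31 higher after DHA, none lower (15 higher and none lower by DESeq2) and a median of 0.44. SLC7A11 is shared with the integrated stress response list. Without erastin replicate 2, 1 member was called lower. TXNRD1 was called higher, and its promoter is shown because it carries an antioxidant element, TGACNNNGC, in capitals, 99 bases before the RefSeq start. The window is chr12:104215629-104215778 on GRCh38.p14, plus strand.
TXNRD1: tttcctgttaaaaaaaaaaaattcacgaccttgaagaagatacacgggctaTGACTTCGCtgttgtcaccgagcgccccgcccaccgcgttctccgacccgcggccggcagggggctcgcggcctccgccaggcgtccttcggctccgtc
The element was found on either strand in 6 of 24 listed promoters (PGD, GCLM, ME1, TXNRD1, ABCC4 and CBR1). It was in 11% of all promoters and in 12.2% of the promoters of tested genes.

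TXNRD1, the cytosolic thioredoxin reductase (chr12:104215779-104350305, + strand), stood at 2010.00, 2082 and 1990.4 CPM after DHA, 1266, 1386 and 1344 CPM after erastin and 519 ± 21.4 CPM with vehicle. The treatments did not overlap and differed by 0.61 (SE 0.06, adjusted p = 2.0e-13). NQO1, a quinone reductase, read 228, 220.2 and 226 CPM after DHA and 126, 114 and 159.9 CPM after erastin, a difference of 0.87 (SE 0.07, adjusted p = 4.5e-18). GCLC, the catalytic subunit of the first step of glutathione synthesis, differed by 0.66 (SE 0.07, adjusted p = 1.5e-12), and GSR, which reduces oxidised glutathione, by 0.64 (SE 0.07, adjusted p = 3.5e-12). TALDO1, of the pentose phosphate pathway that supplies NADPH, differed by 0.72 (SE 0.07, adjusted p = 1.4e-14). HMOX1, the haem oxygenase that frees iron from haem, was not called. It stood at 478, 494 and 477 CPM after DHA and 441, 485 and 616 CPM after erastin, both far from the vehicle level of 6.09 ± 1.1 CPM. The treatments overlapped, and the difference was -0.01 (SE 0.07, adjusted p = 0.905).

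Of 31 glutathione, thioredoxin and peroxide genes, 12 were higher after DHA and 4 lower (8 higher and 2 lower by DESeq2), with a median of 0.16. Without DHA replicate 1 or erastin replicate 1, 2 were lower. Microsomal MGST1 (0.37) and the peroxiredoxin PRDX1 (0.28) were among the higher. TXNIP, the thioredoxin inhibitor, was lower after DHA, at 162, 183 and 174 CPM against 308, 309.7 and 308 CPM, a difference of -0.83 (SE 0.07, adjusted p = 2.4e-18).

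Ferroptosis suppressors and drivers showed no common direction. Among 22 suppressors, 3 were called higher after DHA and 5 lower (2 higher and 3 lower by DESeq2), and among 29 drivers and markers, 5 and 4 (2 higher and 3 lower by DESeq2). The edgeR shares were 13.6% and 22.7% of suppressors and 17.2% and 13.8% of drivers, against 14.0% and 13.8% of all genes. The driver count higher was 2 without erastin replicate 1. GPX4, which reduces phospholipid hydroperoxides, stood at 73, 80.6 and 91.3 CPM after DHA, 103, 98.4 and 132 CPM after erastin and 111 ± 6.68 CPM with vehicle. All DHA libraries were below all erastin libraries, with a difference of -0.32 (SE 0.08, adjusted p = 0.00148, DESeq2 adjusted p = 0.122). AIFM2, also called FSP1, which protects membranes through coenzyme Q, was the reverse, at 79.2, 80.3 and 84.1 CPM against 58.5, 52.2 and 76 CPM and a difference of 0.52 (SE 0.09, adjusted p = 1.3e-06). ACSL4, which loads polyunsaturated acids into phospholipids, did not pass, at 120.2 ± 5.67 CPM against 138 ± 12.2 CPM (difference -0.13, SE 0.07, adjusted p = 0.176). PTGS2, a cyclooxygenase used as a ferroptosis marker, stood at 253, 261 and 227 CPM after DHA, 153, 138 and 164 CPM after erastin and 37.2 ± 2.09 CPM with vehicle. The treatments differed by 0.75 (SE 0.07, adjusted p = 4.7e-15). ALOXE3, an epidermal lipoxygenase, lay at 2.47, 1.64 and 2.58 CPM and 10.9, 8.89 and 24 CPM, a difference of -2.29 (SE 0.29, adjusted p = 3.0e-10). SAT1, which acetylates polyamines and is a p53 target, differed by -0.68 (SE 0.09, adjusted p = 7.7e-08).

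Of 23 iron genes, 4 were higher after DHA and 2 lower (2 higher and none lower by DESeq2), and the 2 became 1 without erastin replicate 1. The edgeR shares were 17.4% higher and 8.7% lower, against 14.0% and 13.8% of all genes. TFRC, the transferrin receptor, stood at 765, 809 and 751 CPM after DHA and 596, 655 and 628 CPM after erastin, a difference of 0.31 (SE 0.07, adjusted p = 1.0e-04). SLC25A37, the mitochondrial iron importer, differed by 0.49 (SE 0.07, adjusted p = 3.2e-08). NCOA4, the receptor that delivers ferritin to autophagy, differed by -0.28 (SE 0.07, adjusted p = 8.6e-04, DESeq2 adjusted p = 0.0682), and the groups overlapped. FTH1, the ferritin heavy chain, was far from the vehicle level of 193 ± 33.8 CPM under both agents, at 1060.2, 1079.6 and 1088 CPM after DHA and 1122, 1001 and 1555 CPM after erastin. The groups overlapped and the difference was -0.15 (SE 0.16, adjusted p = 0.565). Without erastin replicate 2 it was -0.28 and called, with replicate 3 still in the erastin group. Without erastin replicate 3 it was 0.02 (SE 0.05, adjusted p = 0.829) and not called.

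Heat shock genes are induced by HSF1 when unfolded protein accumulates. HSPA6, a strictly inducible member, shows a heat shock element in its promoter, in capitals, matched on the minus strand 74 bases before the start, in chr1:161524290-161524539 on GRCh38.p14, plus strand.
HSPA6: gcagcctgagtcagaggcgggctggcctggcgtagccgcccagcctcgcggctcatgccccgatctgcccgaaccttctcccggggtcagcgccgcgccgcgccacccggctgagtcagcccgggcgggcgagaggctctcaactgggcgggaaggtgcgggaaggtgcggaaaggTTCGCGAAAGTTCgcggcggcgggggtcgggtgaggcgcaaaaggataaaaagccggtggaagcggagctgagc
The heat shock element occurred on either strand in 4 of 23 listed promoters (HSPA6, DNAJB6, CHORDC1 and HSPA8). It was in 0.439% of all promoters and in 0.269% of the promoters of tested genes.

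Of 24 tested chaperone genes, 13 were called higher after DHA and 2 lower (8 higher and 1 lower by DESeq2), with a median of 0.19. The 13 became 8 without erastin replicate 1. The 2 became 1 without erastin replicate 3, erastin replicate 2, DHA replicate 1 or DHA replicate 3. HSPA1B stood at 608, 666 and 653 CPM after DHA and 244, 239.7 and 304 CPM after erastin, with vehicle at 46.9 ± 6.14 CPM, a difference of 1.37 (SE 0.07, adjusted p = 4.4e-32). Its near-identical neighbour HSPA1A stood at 166, 167 and 149 CPM and 102, 114 and 128 CPM and differed by 0.57 (SE 0.07, adjusted p = 5.5e-10), and the division of reads between the pair is uncertain. HSPA6 itself was low, at 12.7, 11.3 and 9.29 CPM after DHA and 10.3, 9.1 and 8.0 CPM after erastin, and did not pass (difference 0.18, SE 0.19, adjusted p = 0.524). DNAJB1, a co-chaperone, differed by 0.48 (SE 0.07, adjusted p = 3.6e-09), and HSPA9, the mitochondrial HSP70, by 0.48 (SE 0.06, adjusted p = 1.6e-09). The small chaperone HSPB1 was lower after DHA, at 147, 153 and 169 CPM against 213, 223 and 212 CPM, a difference of -0.47 (SE 0.07, adjusted p = 3.6e-08). HSPH1 differed by -0.18 (SE 0.06, adjusted p = 0.0333, DESeq2 adjusted p = 0.265), a call lost on leaving out DHA replicate 1 or 3 or erastin replicate 2 or 3 (adjusted p from 0.0818 to 0.486).

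Chaperone and degradation genes of the endoplasmic reticulum were called higher after DHA for 12 of 27 and lower for none (9 higher and none lower by DESeq2), with a median of 0.18. HSPA5, the master chaperone BiP (chr9:125234853-125241330, - strand), stood at 1753, 1740.1 and 1779 CPM after DHA, 799.7, 845 and 936 CPM after erastin and 582 ± 25.3 CPM with vehicle. It was 2.06-fold higher after DHA, a difference of 1.04 (SE 0.07, adjusted p = 6.2e-25). PDIA4, a disulfide isomerase, differed by 0.76 (SE 0.07, adjusted p = 5.6e-17), the secreted chaperone MANF by 0.65 (SE 0.08, adjusted p = 3.7e-11) and HERPUD1, of ER-associated degradation, by 0.52 (SE 0.08, adjusted p = 2.6e-08). Proteasome subunits were higher after DHA for 21 of 32 genes and lower for 1 (9 higher and 1 lower by DESeq2), with a median of 0.23. The 21 became 12 without erastin replicate 1. PSMD2, a base subunit of the 19S cap, differed by 0.49 (SE 0.07, adjusted p = 4.8e-09), from 737 ± 70.7 CPM after erastin to 1017 ± 25.6 CPM after DHA. The activator PSME4 was the gene called lower (-0.29).

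Genes of fatty acid oxidation and targets of PPAR receptors, which fatty acids activate, were called in both directions, 6 of 30 higher after DHA and 5 lower (5 higher and 4 lower by DESeq2). By edgeR these were 20% and 16.7%, near the 14.0% and 13.8% of all genes. ANGPTL4 (chr19:8363289-8374373, + strand), a secreted inhibitor of lipoprotein lipase and a PPAR target, was the gene most in favour of DHA by the naming rule. It stood at 78.8, 64.2 and 76.6 CPM after DHA, 14.3, 9.54 and 36 CPM after erastin and 3.1 ± 1.11 CPM with vehicle. ANGPTL4 was 5.54-fold higher after DHA, a difference of 2.47 (SE 0.14, adjusted p = 3.7e-21), and erastin replicate 3 rested on 9 counts. PLIN2, the coat protein of lipid droplets, read 238, 234 and 243 CPM after DHA, 108, 112 and 124 CPM after erastin and 38.4 ± 6.37 CPM with vehicle. The treatments differed by 1.10 (SE 0.07, adjusted p = 2.5e-24). ACADVL, of mitochondrial beta-oxidation, differed by 0.85 (SE 0.07, adjusted p = 2.0e-19) and CPT1A, which admits fatty acids to mitochondria, by 0.51 (SE 0.07, adjusted p = 1.4e-08). PDK4, a further PPAR target, did not pass at 7.32 ± 1.59 CPM against 4.76 ± 0.716 CPM (difference 0.59, SE 0.25, adjusted p = 0.0685), though it was called without DHA replicate 1 (adjusted p = 0.0396). Those lower included the receptors PPARG (-0.65), PPARD (-0.45) and PPARA (-0.32, DESeq2 adjusted p = 0.285) and the coactivator PPARGC1A (-1.32). The PPAR element, a direct repeat, was in none of 24 listed promoters. It was in 0.0183% of all promoters and 0.0199% of those of tested genes, too rare for 24 promoters to show a lack.

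Lipid droplet genes were called in both directions, 6 of 20 each (3 higher and 6 lower by DESeq2). The synthesis enzymes GPAT4 (0.52) and DGAT1 (0.49, DESeq2 adjusted p = 0.179) were higher after DHA, and the lipases MGLL (-0.53) and PNPLA2 (-0.42) lower. Fatty acid synthesis genes were lower for 6 of 20 and higher for 2 (none higher and 2 lower by DESeq2), with a median of -0.14. The 2 became 1 without erastin replicate 1. SCD, which makes monounsaturated fatty acids, was below vehicle under both agents, at 487, 511 and 468 CPM after DHA, 783, 868 and 619.8 CPM after erastin and 1155 ± 149.5 CPM with vehicle. The treatments differed by -0.67 (SE 0.07, adjusted p = 8.9e-12) and did not overlap. SREBF1, the factor that drives SCD, differed by -0.60 (SE 0.08, adjusted p = 2.6e-09). FADS2, a desaturase of the pathway that makes DHA, did not pass with 6 libraries (difference -0.13, SE 0.07, adjusted p = 0.173), but was called without erastin replicate 3 at -0.20 (adjusted p = 0.00451). Cholesterol genes were mixed, 5 of 26 higher and 7 lower (none higher and 1 lower by DESeq2). By edgeR 19.2% of the list was higher and 26.9% lower, against 14.0% and 13.8% of all genes. Without erastin replicate 1 the 5 and 7 became 2 and 4, and without DHA replicate 2 the 7 became 4. SQLE, an oxidising step of the pathway, differed by 0.50 (SE 0.10, adjusted p = 5.5e-05, DESeq2 adjusted p = 0.0519) and INSIG1, which retains SREBP in the ER, by -0.65 (SE 0.08, adjusted p = 1.7e-11). HMGCS1 did not pass (0.13, SE 0.07, adjusted p = 0.17). The sterol motif TCACNCCAC was in 1 of 19 listed promoters, SREBF2, in 0.875% of all promoters and in 0.856% of the promoters of tested genes.

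The list of liver X receptor targets concerns receptors that sense oxysterols and promote cholesterol export. Of its 14 tested genes, 5 were lower after DHA and 1 higher (none higher and 5 lower by DESeq2), with a median of -0.25. The gene higher, NR1H2 (0.26, DESeq2 adjusted p = 0.323), encodes a liver X receptor itself. It was not called without erastin replicate 2. ABCA1, the cholesterol exporter, stood at 3.09, 2.69 and 1.29 CPM after DHA, 11, 13.9 and 8.0 CPM after erastin and 5.54 ± 1.07 CPM with vehicle, so that vehicle lay between the treatments. They differed by -2.33 (SE 0.27, adjusted p = 1.2e-11), with 2 counts in erastin replicate 3. MYLIP, a ubiquitin ligase, differed by -1.53 (SE 0.17, adjusted p = 6.9e-12). The list shares SCD and SREBF1 with the fatty acid list.

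Of 26 NF-kB targets, cytokines and chemokines, 18 were called higher and 2 lower (11 higher and 1 lower by DESeq2), with a median of 0.47. CXCL8, the neutrophil attractant interleukin 8 (chr4:73740506-73743716, + strand), stood at 181, 201 and 186 CPM after DHA, 84.8, 81.7 and 72 CPM after erastin and 36.1 ± 5.42 CPM with vehicle. The treatments did not overlap and differed by 1.20 (SE 0.07, adjusted p = 9.3e-26). CXCL2 (1.76, SE 0.15, adjusted p = 4.7e-17) and CXCL3 (1.87, SE 0.16, adjusted p = 1.6e-17) are near-identical chemokine genes, and reads could have been split between them. RELB, a subunit of the noncanonical pathway, differed by 1.23 (SE 0.12, adjusted p = 4.9e-15). NFKBIA, the inhibitor that NF-kB itself induces, differed by 0.94 (SE 0.11, adjusted p = 1.4e-11) and the pyrogenic cytokine IL1B by 0.87 (SE 0.08, adjusted p = 6.0e-13). The 2 genes lower were IL24 (-0.42), a cytokine of the IL10 family, and BCL3 (-1.04, DESeq2 adjusted p = 0.121), an NF-kB cofactor. Prostaglandin genes were higher for 5 of 11, PTGS2 among them, and lower for 1 (1 higher and none lower by DESeq2), the terminal synthase PTGES (-0.57, DESeq2 adjusted p = 0.106). The 5 became 2 without erastin replicate 1. Interferon-stimulated genes were mixed, 6 of 25 higher and 3 lower (2 higher and 2 lower by DESeq2), with IFIT1 at 0.79 and the membrane protein IFITM3 at -0.42. The edgeR shares of that list were 24% higher and 12% lower, against 14.0% and 13.8% of all genes.

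Replication-dependent histone genes formed the list with the highest median. They are transcribed in S phase and their messenger RNAs end in a stem-loop in place of a poly(A) tail, which libraries made by ribosomal RNA depletion can hold. Of 25 tested, 22 were higher after DHA, none lower (21 higher and none lower by DESeq2), and the median was 1.07. Without erastin replicate 2, 1 was called lower. H2AC4, an H2A gene, stood at 71.1, 72.4 and 81 CPM after DHA, 23.4, 18.4 and 8.0 CPM after erastin and 139 ± 13.9 CPM with vehicle. Both agents lay below vehicle, erastin further, and they differed by 1.83 (SE 0.11, adjusted p = 8.6e-26). H2BC11 differed by 1.63 (SE 0.09, adjusted p = 3.9e-28), H3C12 by 1.76 (SE 0.12, adjusted p = 8.8e-23) and H2AC20, at 116 ± 13.4 CPM against 33.3 ± 15.1 CPM, by 1.46 (SE 0.10, adjusted p = 1.6e-21). Histone genes share near-identical sequence, so single members are uncertain.

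DNA replication genes were higher after DHA for 14 of 33 and lower for 1 (5 higher and none lower by DESeq2), with a median of 0.24, and the 14 became 8 without erastin replicate 2. FEN1, which trims Okazaki fragments, stood at 201 ± 18.9 CPM after DHA and 144 ± 10.5 CPM after erastin, with vehicle at 232 ± 13.4 CPM. It differed by 0.44 (SE 0.07, adjusted p = 6.6e-07). TYMS, which makes thymidylate, was higher (0.51, DESeq2 adjusted p = 0.183). Mitosis genes had a median of 0.03, with 7 of 31 higher and 4 lower (3 higher and 1 lower by DESeq2). By edgeR these were 22.6% and 12.9% of the list, against 14.0% and 13.8% of all genes. The 7 became 3 without DHA replicate 2 and 4 without erastin replicate 2 or 3, and the 4 became 2 without erastin replicate 1. CDK1, the mitotic kinase, stood at 74.5, 85.8 and 79.96 CPM after DHA and 62.6, 57.9 and 39.98 CPM after erastin, a difference of 0.43 (SE 0.09, adjusted p = 5.1e-05). Among 18 G1 cyclins and CDK inhibitors, 2 were higher and 5 lower (none higher and 3 lower by DESeq2), and the 2 became 1 without erastin replicate 1. By edgeR 11.1% of this list was higher and 27.8% lower. CDK6 differed by -0.59 (SE 0.07, adjusted p = 3.0e-11). Among p53 targets, 4 of 24 were higher and 5 lower (1 higher and 2 lower by DESeq2), the 5 falling to 3 without erastin replicate 1. The edgeR calls made up 16.7% and 20.8% of the list, against 14.0% and 13.8% of all genes. CDKN1A, the p21 inhibitor, stood at 151, 157 and 167 CPM after DHA, 198, 225 and 192 CPM after erastin and 48.2 ± 2.02 CPM with vehicle. It differed by -0.40 (SE 0.07, adjusted p = 2.4e-06). GADD45B differed by -1.04 (SE 0.10, adjusted p = 6.4e-16), with DHA at 37.9 ± 3.63 CPM, near the vehicle level of 38 ± 3.1 CPM. BCL2 family and death receptor genes were higher for 7 of 27 and lower for 3 (1 higher and none lower by DESeq2). These were 2 and 1 without erastin replicate 1 or DHA replicate 2. By edgeR on 6 libraries, 25.9% of the list was higher and 11.1% lower. BAX, a pore-forming killer protein, differed by 0.40 (SE 0.08, adjusted p = 8.7e-05) and the anti-apoptotic BCL2L1 by -0.35 (SE 0.09, adjusted p = 7.6e-04, DESeq2 adjusted p = 0.0776).

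Matrix and mesenchymal genes were called both ways, 9 of 31 higher after DHA and 8 lower (5 higher and 6 lower by DESeq2), and the 9 became 5 without DHA replicate 3 or erastin replicate 2. COL7A1, the collagen of anchoring fibrils, stood at 274, 236 and 288 CPM after DHA, 81.8, 50.3 and 44 CPM after erastin and 80.02 ± 4.75 CPM with vehicle. It differed by 1.98 (SE 0.23, adjusted p = 0.00476). MMP14, a membrane collagenase, was higher by 0.63 (SE 0.07, adjusted p = 2.5e-13). FN1, fibronectin, stood at 179.9, 194 and 192 CPM after DHA and 359, 340.3 and 348 CPM after erastin, a difference of -0.89 (SE 0.07, adjusted p = 3.1e-20). BMP, activin and TGF-beta response genes were lower for 8 of 21 and higher for 2 (none higher and 3 lower by DESeq2), with a median of -0.22. Without erastin replicate 1 these were 5 and 1, and without DHA replicate 3 the 2 became 4. The ligand TGFB2 (-1.68, SE 0.31, adjusted p = 1.3e-05) and the receptor TGFBR2 (-0.40, SE 0.07, adjusted p = 3.0e-06) were lower, and the inhibitor SMAD7 (0.46, SE 0.13, adjusted p = 0.00329, DESeq2 adjusted p = 0.206) higher. SMAD7 did not pass without erastin replicate 1 (adjusted p = 0.07).

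The insulin-like growth factor system, to which IGFBP6 belongs, was lower after DHA for 7 of 12 tested genes and higher for 1 (none higher and 4 lower by DESeq2), with a median of -0.32. IGFBP6 was too low to test. IGFBP1 stood at 16.1, 22.2 and 24.8 CPM after DHA and 43.3, 38.8 and 36 CPM after erastin, a difference of -0.94 (SE 0.12, adjusted p = 1.6e-09). IGFBP7 differed by -0.71 (SE 0.10, adjusted p = 2.3e-08). The docking proteins IRS1 (-0.51, SE 0.07, adjusted p = 3.0e-09) and IRS2 (-0.36, SE 0.07, adjusted p = 2.5e-05), which relay insulin and IGF receptor signals, were both lower. The gene higher was IGF2BP3 (0.28, DESeq2 adjusted p = 0.245), an RNA-binding protein of IGF2 messenger RNA, not called without DHA replicate 1.

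Of 31 glycolysis and hypoxia targets, 12 were higher after DHA and 4 lower (4 higher and 3 lower by DESeq2), and the 12 became 5 without erastin replicate 1 and 7 without DHA replicate 2. ADM, the vasodilator peptide adrenomedullin, went against them at 36.5, 38.4 and 43.3 CPM after DHA and 98.8, 115 and 92 CPM after erastin, a difference of -1.42 (SE 0.09, adjusted p = 1.0e-24). Autophagy and lysosome genes were higher for 6 of 36 and lower for 9 (2 higher and 6 lower by DESeq2). By edgeR these were 16.7% and 25% of the list, against 14.0% and 13.8% of all genes. SQSTM1, the autophagy receptor p62 and an NRF2 target, stood at 1434, 1443 and 1656 CPM after DHA, 756, 814 and 904 CPM after erastin and 255 ± 9.44 CPM with vehicle. It differed by 0.89 (SE 0.07, adjusted p = 9.3e-20). MITF, a factor of lysosomal genes, differed by -0.88 (SE 0.09, adjusted p = 5.6e-13). The long noncoding RNA NEAT1, which builds paraspeckles, stood at 1642, 1539 and 1509 CPM after DHA and 659, 733 and 896 CPM after erastin, a difference of 1.07 (SE 0.07, adjusted p = 1.8e-20). Of 8 nuclear and structural RNAs, 5 were higher and 2 lower (3 higher and 2 lower by DESeq2), the latter KCNQ1OT1 (-0.75) and the signal recognition particle RNA RN7SL1 (-0.50).

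Cytosolic ribosomal proteins were lower for 8 of 30 and higher for 2 (1 higher and 5 lower by DESeq2), with a median of -0.03. The 8 became 4 without DHA replicate 1 and 5 without erastin replicate 1, and the 2 became 1 without DHA replicate 3 or any erastin replicate. RPL11, which also restrains MDM2, differed by -0.48 (SE 0.06, adjusted p = 1.3e-09). Ribosome biogenesis genes were higher for 6 of 30 and lower for none (3 higher and none lower by DESeq2), and the 6 became 3 without erastin replicate 2. By edgeR the 6 were 20% of the list, against the 14.0% of all genes called higher. With erastin replicate 2 or DHA replicate 2 left out, 1 was called lower. Nuclear-encoded respiratory chain genes were higher for 6 of 35 and lower for 1 (2 higher and none lower by DESeq2), COX5A (-0.27, DESeq2 adjusted p = 0.337), which was not called without DHA replicate 1, DHA replicate 2 or erastin replicate 1. The 6 were 17.1% of that list, near the 14.0% of all genes called higher. Polyamine genes were higher for 4 of 10 and lower for 1 (none higher and 1 lower by DESeq2), SAT1, and the 4 became 1 without erastin replicate 1 or 2 and 2 without DHA replicate 1.

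The 13 mitochondrially encoded messenger RNAs had a median of -1.76, and neither edgeR nor DESeq2 called any on the 6 libraries. With all 18 libraries in the edgeR fit, 10 were called lower after DHA, MT-ND1 with an adjusted p of 0.0118. Their share of counts outside ribosomal RNA was 16.3% in erastin replicate 3, 5.61% and 3.61% in the other erastin libraries and 2.43% to 3.62% in the DHA libraries. MT-ND1, a subunit of complex I, differed by -2.40 (SE 0.98, adjusted p = 0.164) with all libraries and by -0.98 without erastin replicate 3. Without that library the median of the 13 was -0.71, with no call by edgeR and 4 lower by DESeq2. Among the lists, this was the widest move of a median on leaving out that library.

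**Figure D3:**
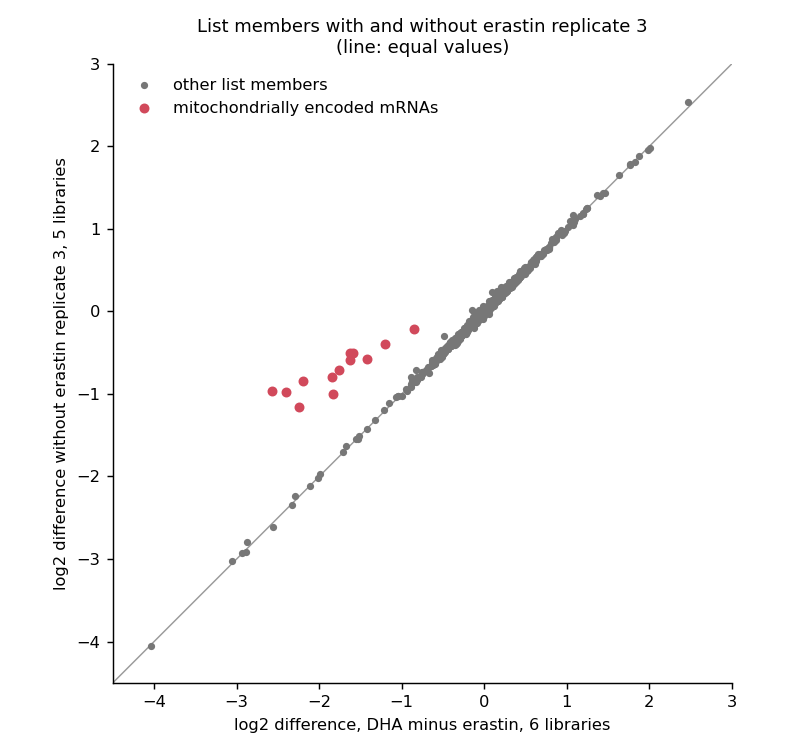
Log2 difference, DHA over erastin, of the tested list members with all 6 libraries (x axis) and without erastin replicate 3 (y axis), 1 point per gene. Grey points lie near the diagonal, and the 13 mitochondrially encoded messenger RNAs, in red, lie off it, with medians of -1.76 and -0.71.

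Some of the widest differences belonged to none of the lists. GPR132, a receptor for oxidised fatty acids and protons, stood at 38.3, 38.8 and 48.5 CPM after DHA, 13.1, 15.2 and 12 CPM after erastin and 12.3 ± 0.688 CPM with vehicle. It differed by 1.58 (SE 0.14, adjusted p = 3.7e-17), with the erastin libraries near vehicle. PANX2, a pannexin channel, differed by 1.78 (SE 0.28, adjusted p = 2.0e-07), from 3.11 ± 0.788 CPM to 9.13 ± 0.734 CPM. ELMO3, a regulator of cell migration, was at 14.5, 12.7 and 14.7 CPM after DHA, near the vehicle level of 12.2 ± 1.28 CPM, and at 5.57, 3.68 and 4.0 CPM after erastin. It differed by 1.51 (SE 0.22, adjusted p = 2.5e-08). In erastin replicate 3, PANX2 and ELMO3 rested on 1 count each.

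The same contrast in the sh-LUC line was used to ask whether the separation between DHA and erastin depended on the hairpin. In a fit of the 12 treated libraries, 510 genes were called and at least 2-fold apart in sh-IGFBP6 cells (3.15% of 16198) and 1490 in sh-LUC cells (9.20%). The treated sh-LUC libraries held 5661402 to 7965167 counts and the sh-IGFBP6 ones 278278 to 7137179, so the power to call genes differed between lines. The test of the difference between lines called 4950 genes (30.6%), with the DHA over erastin difference larger in sh-IGFBP6 for 2389 (14.7%) and smaller for 2561 (15.8%). Scaled by library size alone, without TMM factors, these were 1513 and 3692. Larger and smaller refer to the signed value, so genes called larger, such as HSPA6, could have closer treatments in sh-IGFBP6. The lines were separate cell populations, so the hairpin and any other difference between them cannot be told apart.

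Of 25 heat shock and chaperone genes, 22 had a larger value in sh-IGFBP6 and none a smaller one, with medians of 0.20 in sh-IGFBP6 and -1.09 in sh-LUC. HSPA6 stood at 1.6, 0.996 and 6.97 CPM after DHA and 1037, 1060.2 and 892 CPM after erastin in sh-LUC cells, against 12.7, 11.3 and 9.29 CPM and 10.3, 9.1 and 8.0 CPM in sh-IGFBP6 cells. The line difference was 8.46 (SE 0.66, adjusted p = 1.2e-05). HMOX1 in sh-LUC cells was at 33.7, 32.6 and 39.5 CPM after DHA and 1416, 1376 and 1087 CPM after erastin, where the sh-IGFBP6 treatments overlapped. The line difference was 5.19 (SE 0.14, adjusted p = 4.0e-20). Integrated stress genes were larger for 22 of 29 and smaller for none, with medians of -0.13 and -1.06, and NRF2 targets larger for 20 of 32 and smaller for none. SLC7A11 gave values of opposite sign, 0.46 in sh-IGFBP6 and -1.40 in sh-LUC, and so did CXCL8 (1.20 and -2.67) and PTGS2 (0.76 and -3.26). Mitosis genes were smaller for 30 of 32 and larger for none, with medians of 0.04 and 1.13. Histone genes were smaller for 21 of 25, with medians above 0 in both lines (1.07 and 1.75). ARC was lower after DHA in both lines, at -4.04 in sh-IGFBP6 and -7.57 in sh-LUC, and EGR1 likewise, at -2.85 and -4.08. ALOXE3 gave -2.29 and -2.30, a line difference of 0.01 (SE 0.62, adjusted p = 0.973) that did not pass.

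**Figure D4:**
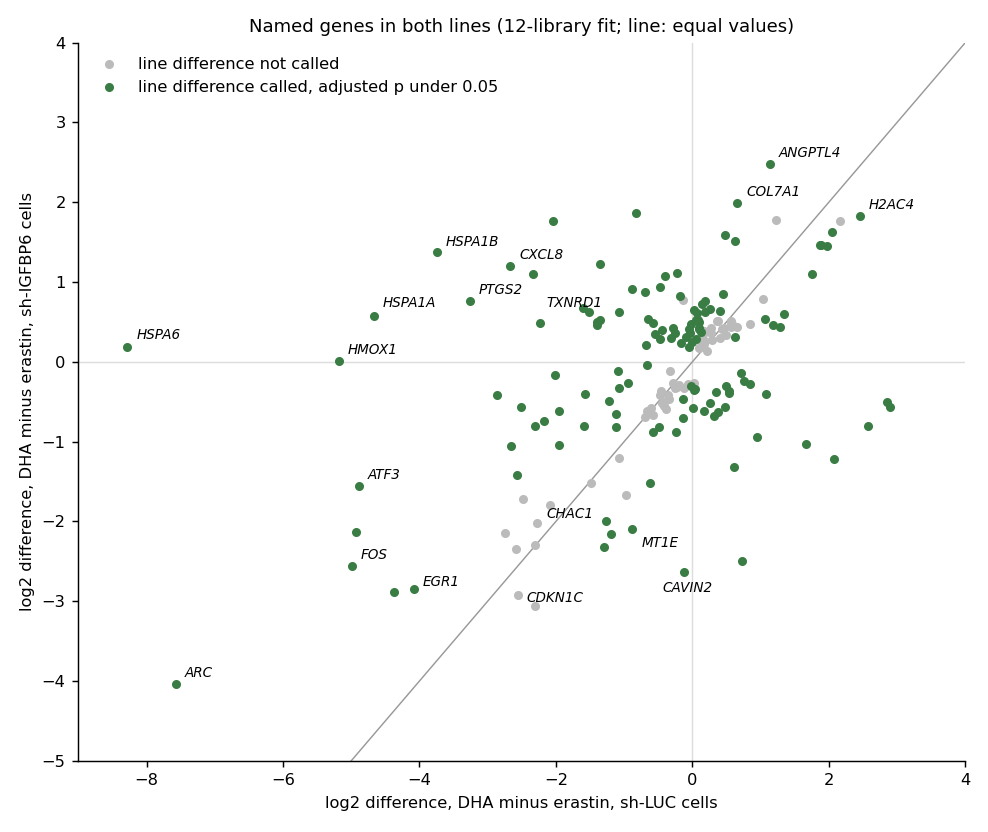
Log2 difference, DHA over erastin, of the named genes in sh-LUC cells (x axis) and sh-IGFBP6 cells (y axis), from the fit of 12 treated libraries, with green points where the line difference was called. HSPA6 lies near 0 in sh-IGFBP6 and at -8.28 in sh-LUC, while ARC is negative in both. Of the plotted genes, 10 were named for their line difference.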

How the data were processed

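Total RNA of 18 MDA-MB-231 samples was sequenced after ribosomal RNA depletion, per the labels' protocols. The submitters' processing notes name cutadapt 4.4, STAR 2.7.7a, featureCounts and the GRCh38 build. The authors deposited raw counts per gene for 60709 genes. No annotation release or strand setting is given in the sources used here, and reads of overlapping or antisense genes cannot be told apart. Lines naming no gene (at most 0.0108% of a library) were left out.

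Counts of the 6 libraries were fitted in R 4.3.3 with edgeR 4.0.16 (filterByExpr with a minimum count of 10 and a minimum total of 15, TMM, robust glmQLFit, glmQLFTest), with MT-RNR1 and MT-RNR2 removed beforehand. Benjamini-Hochberg adjustment ran over all 13278 genes kept, and genes below 0.05 were called. The fit had 4 residual degrees of freedom. Vehicle and sh-LUC libraries were put on the same CPM scale for description. The line difference used 12 treated libraries. Alternatives were DESeq2 1.42.0, limma 3.58.1 voom with sample weights, other scalings and filters, all 18 libraries, a replicate block and leaving out each library. The scripts were tested on simulated data. A total of 3 counts was taken as the floor of detection.

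Named genes were 28 fixed ferroptosis, stress and lipid genes, the 12 widest called differences each way (mean of at least 5 CPM, groups not overlapping, called also without erastin replicate 3), up to 4 genes of smallest p and 2 called against the rest per list, and 10 genes of widest line difference. Members and lists were chosen with earlier results of these data known. ZFP36, DUSP1, DUSP10, KLF10, PHGDH, SLC30A1, MGST1, PRDX1, NFKBIA, IL1B, TYMS, DGAT1, PPARG, PPARD and PPARA were named after their values were seen, as was the CArG box. Promoters are RefSeq's on GRCh38.p14, and gene positions those of GENCODE 29. Some members are not reported here by name.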

Additional observations from a re-analysis of the deposited data

Results flagged for a closer look

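Of the fixed ferroptosis, stress and lipid genes and the 10 genes of widest line difference, 26 had a DHA over erastin difference that differed between the lines by the interaction term of the edgeR fit of 12 libraries (adjusted p under 0.05). Over all genes named by rule, 129 of 188 did so, against 30.6% of all 16198 genes tested. The 10 genes of widest line difference were picked among called genes, so their calls were fixed in advance. Many other named genes were picked for wide or small-p treatment differences. The values here are those of the 26. Positive values mean a higher signed DHA over erastin value in sh-IGFBP6 than in sh-LUC cells, not a wider gap between treatments. HSPA6 stood at 0.19 in sh-IGFBP6 and -8.28 in sh-LUC, whereas ABCA1 stood at -2.32 and -1.30. Chaperones held the widest of these: HSPA6 at 8.46, HSPA1A at 5.24 and HSPA1B at 5.13 on the log2 scale, the last 2 being near-identical genes. Among stress and iron genes, HMOX1 differed by 5.19, TXNRD1 by 1.71, FTH1 by 0.98, DDIT3 by 1.4 and ATF4 by 0.64. The chains of system xc- differed by 1.86 (SLC7A11) and 1.91 (SLC3A2). The ferroptosis suppressor AIFM2 differed by 0.45, and the inflammatory genes PTGS2 by 4.01 and CXCL8 by 3.87. JUN differed by 1.5 and the p21 gene CDKN1A by 1.17. Of the lipid genes, ANGPTL4 (1.34) and PLIN2 (1.35) had a higher signed value in sh-IGFBP6, whereas PDK4 (-0.75), SCD (-1.0), FADS2 (-0.87) and ABCA1 (-1.02) had a lower one. The widest in the other direction were SLCO4A1-AS1 (-3.46), SLCO4A1 (-3.39), PCDH17 (-3.36), RASSF4 (-3.29) and VSIR (-3.22), of which SLCO4A1-AS1 and SLCO4A1 are antisense partners whose reads cannot be told apart. In sh-IGFBP6 cells SLCO4A1, RASSF4 and VSIR were below 5 CPM in all 6 libraries. PCDH17 was below 1 CPM in the sh-LUC libraries.

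MT-RNR1 and MT-RNR2 held 54.376% of the counts of sh-IGFBP6 erastin replicate 3, outside the main measurement, against at most 0.504% in the other 5 libraries of the comparison.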

How the results depend on the processing

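All 18 libraries in the fit gave 329 genes at least 2-fold lower after DHA, and no filter on low counts gave 347. A minimum count of 30 gave 63 at least 2-fold higher and 96 lower. DESeq2 called 550 higher and 486 lower, 53 and 99 of them at least 2-fold. Chosen after seeing the data, DESeq2 without erastin replicate 3 called 1053 and 892, with 88 and 140 at least 2-fold. For the line difference, library size alone gave 1513 larger and 3692 smaller, and DESeq2 gave 1516 and 1489. With 1 library left out, higher calls ranged from 1228 to 1920 and lower calls from 1158 to 1904. Calls at least 2-fold ranged from 114 to 157 higher and from 209 to 273 lower. Line difference calls ranged from 1934 to 2406 larger and from 1904 to 2606 smaller. Same-numbered samples did not deviate together (correlations -0.010, -0.033 and -0.027), and no sample correlated best with its own number. A replicate block gave 1584 and 1546, and it took SNORD3A, RPL13 and SRM out of the calls. HMOX1, not called in any of these, turned positive at 0.02 with 18 libraries, 0.07 without erastin replicate 3, 0.03 with library size alone, 0.07 with voom, 0.01 without a filter and 0.07 with DESeq2 on 5 libraries. With a library left out, HMOX1 ranged from -0.12 to 0.07, FTH1 from -0.28 to 0.02 and ATF4 from -0.10 to 0.02. FTH1 was 0.02 without erastin replicate 3 and 0.02 with DESeq2 on 5 libraries, and ATF4 was 0.02 without DHA replicate 2. The cause was not tested. In erastin replicate 3, a count of 0 allows up to 12 CPM, against at most 0.928 CPM in the other 5 libraries (3 counts, counting error only).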
